A study of Mus musculus with 81 samples.

Results

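Gata6, Rarb, Prg4, Alox15, Selp, Icam2, F5 and Timd4, the genes that mark large peritoneal macrophages, were followed in RNA-seq data of mouse macrophages. The data hold WT cells and cells in which the H3.3 genes were conditionally targeted. These 8 members were chosen by gene symbol from the 54079 genes listed in every library, because they are known for this cell type. Earlier results of these data were known when they were chosen. Each member was read as unstranded counts per gene. Large peritoneal macrophages are the resident macrophages of the serous cavity. Their identity depends on GATA6, a transcription factor that retinoic acid from the surrounding tissue induces, and on the enzymes, adhesion molecules and secreted proteins that this programme switches on. Macrophages grown from bone marrow with a macrophage growth factor receive no such signal and do not take on this identity.

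RNA was sequenced in 81 libraries, and 79 of them could be placed in 27 groups from their labels. WT mice carried H3f3a fl/fl and H3f3b fl/fl alleles, and cKO mice carried the same alleles with LysM cre/cre, in which Cre is expressed from both copies of the lysozyme gene Lyz2. Both were on a C57BL/6 background, male or female, and 8 to 10 weeks old. Of these, 6 libraries came from peritoneal macrophages, 3 WT and 3 cKO, isolated with a Miltenyi kit. The other 73 labelled libraries, in 25 groups, came from bone marrow derived macrophages (BMDMs). They comprised cells of both genotypes after 3, 5 or 7 days of culture, day 8 cells with or without interferon-γ for 12 h, and day 6 cells without antibody, with a control antibody or with an IFNAR1 antibody at 10 µg/mL, which blocks the receptor of type I interferons. The remaining BMDM groups were 3 sets of WT and cKO cells and cKO cells that also lacked Sting, Mavs or Irf7 (double KOs), and the labels do not give which set belongs to which double KO. Groups held 3 libraries, except the cKO groups of day 8 with 2.

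The deletion was checked first, in the peritoneal libraries only. The study reports it in these cells by quantitative PCR. It also reports that deletion of H3f3b ranged from partial to complete among cKO samples. H3f3a, one of the 2 genes for H3.3, had 57.0, 34.5 and 34.5 counts per 1000000 reads on genes (CPM) in the WT peritoneal libraries and 5.22, 4.74 and 3.12 CPM in the cKO libraries, and fell by 3.22 on the log2 scale (adjusted p = 0.00294). H3f3b, the other, had 535, 423 and 354 CPM in WT and 302, 360 and 323 CPM in cKO libraries, a log2 fold change of -0.41 that was not called (adjusted p = 0.518). Counts on genes ranged from 7625225 to 23381318 in the peritoneal libraries. They ranged from 14419697 to 20220329 for days 3 to 7, from 3614967 to 10498769 for day 8, from 5295144 to 34380735 for the cells with or without antibodies and from 21504555 to 45581528 for the sets with the double KOs. A pair of libraries stood apart. WT peritoneal replicate 1 had the highest summed level of 16 small peritoneal macrophage and monocyte genes (4290 CPM against 1640 and 1630 in the other WT libraries) and of 8 mesothelial markers (42.4 CPM against 14 and 13.4). The cKO library of day 8 with interferon-γ, replicate 1, was the smallest of all with 3614967 counts on genes. It had 57.06% unmapped reads and a mesothelial marker sum of 18.7 CPM, where the other labelled day 8 libraries had at most 18.35% and 2.52 CPM.

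The label of the peritoneal cells was checked against markers. The summed level of 9 macrophage markers was 10500 to 12500 CPM in WT and 10800 to 12400 CPM in cKO libraries. Markers of B cells, which are abundant in the cavity, summed to 3.68 to 11.6 CPM, and platelet markers to at most 2.47 CPM. Whether a lower value in such bulk libraries came from fewer cells of a type or from less RNA per cell cannot be told apart.

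The members lie on 4 chromosomes. Positions are those of GENCODE vM21 on GRCm38, the assembly also called mm10. Selp (chr1:164115264-164150026, plus strand) and F5 (chr1:164151838-164220277, plus strand) are neighbours with 1811 bases between them. Prg4 lies on the same chromosome (chr1:150449412-150466165, minus strand). Alox15 (chr11:70344152-70352031, minus strand), Icam2 (chr11:106377656-106388075, minus strand) and Timd4 (chr11:46810800-46844332, plus strand) share another chromosome. Rarb lies at chr14:16430839-16819156 on the minus strand.

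RefSeq promoter sequences of the build GRCm38.p6 were at hand for Rarb, Selp, F5 and Timd4. Rarb, the retinoic acid receptor β, is shown because its promoter holds the element through which retinoic acid is known to switch the gene on. The 30 bases at chr14:16575506-16575535 on the minus strand, from -59 to -30 of the RefSeq start, have the paired half-sites and their spacer in capitals. The 250 bases before the starts of the neighbours Selp (chr1:164115014-164115263, plus strand) and F5 (chr1:164151585-164151834, plus strand) are shown because the genes are adjacent on 1 strand and both fell during culture in cKO cells.
Rarb: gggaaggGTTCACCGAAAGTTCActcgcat
Selp: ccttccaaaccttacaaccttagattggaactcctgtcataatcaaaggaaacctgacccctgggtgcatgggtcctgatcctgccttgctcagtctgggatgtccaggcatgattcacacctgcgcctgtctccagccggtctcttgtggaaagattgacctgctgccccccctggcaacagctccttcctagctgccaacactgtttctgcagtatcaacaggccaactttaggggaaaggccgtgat
F5: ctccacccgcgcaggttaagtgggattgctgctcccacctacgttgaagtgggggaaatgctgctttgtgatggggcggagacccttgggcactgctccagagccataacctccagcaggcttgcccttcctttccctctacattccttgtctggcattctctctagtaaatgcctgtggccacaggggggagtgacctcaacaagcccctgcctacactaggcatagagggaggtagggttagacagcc
A pair of GTTCA on 1 strand with 6 bases between them, searched on both strands, was found in 0.067% of 32851 promoter windows of the same length, and among the 4 members only in that of Rarb. TTC and GAA with 3 bases between them, the letters of a gamma-activated site, overlap this match in Rarb and were present in 7.02% of windows. The letters AGATAA, a motif of GATA factors, occurred in 9.99% of windows and in none of these 4. The interferon-stimulated response element, read as a pair of GAAA with 2 bases between them, occurred in 2.98% of windows and again in none of the 4.

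The levels of the members in peritoneal macrophages spanned a wide range. Levels of different genes were compared as CPM per kilobase of exon (RPKM), with all labelled libraries scaled together. The CPM given below for the peritoneal comparison were scaled within that experiment and are not on this scale. Alox15, the 12/15-lipoxygenase that oxidises arachidonic and linoleic acid, had the highest level at 8170 ± 1030 RPKM (SD, n = 3) in WT cells, where it ranked 3 among 28879 genes with counts and took 1.72% of all counts on genes. In cKO cells it had 8210 ± 439 RPKM and ranked 1 of 24229 genes. Prg4, which encodes the lubricating proteoglycan lubricin, followed in WT cells with 1490 ± 137 RPKM. Timd4, a receptor for phosphatidylserine on dying cells, had 710 ± 96.2 RPKM, and Icam2, an adhesion molecule and ligand of LFA-1, had 686 ± 98.7 RPKM. These neighbours in the order did not differ beyond their spread. Selp, the adhesion molecule P-selectin, had 360 ± 81.8 RPKM, and F5, coagulation factor V, had 343 ± 181 RPKM, again within their spread. The transcription factor genes were far lower: Gata6 had 20.6 ± 4.95 RPKM and ranked 2304, and Rarb had 5.02 ± 0.787 RPKM and ranked 6353. Reads on exons shared with other genes were left out of these counts, while the whole exon length was used. In the peritoneal libraries the unstranded count was 71.4% of the sum of the strand columns for Selp and 37.1% for Rarb. The levels and ranks of Selp and Rarb may therefore be too low.

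**Figure D1:**
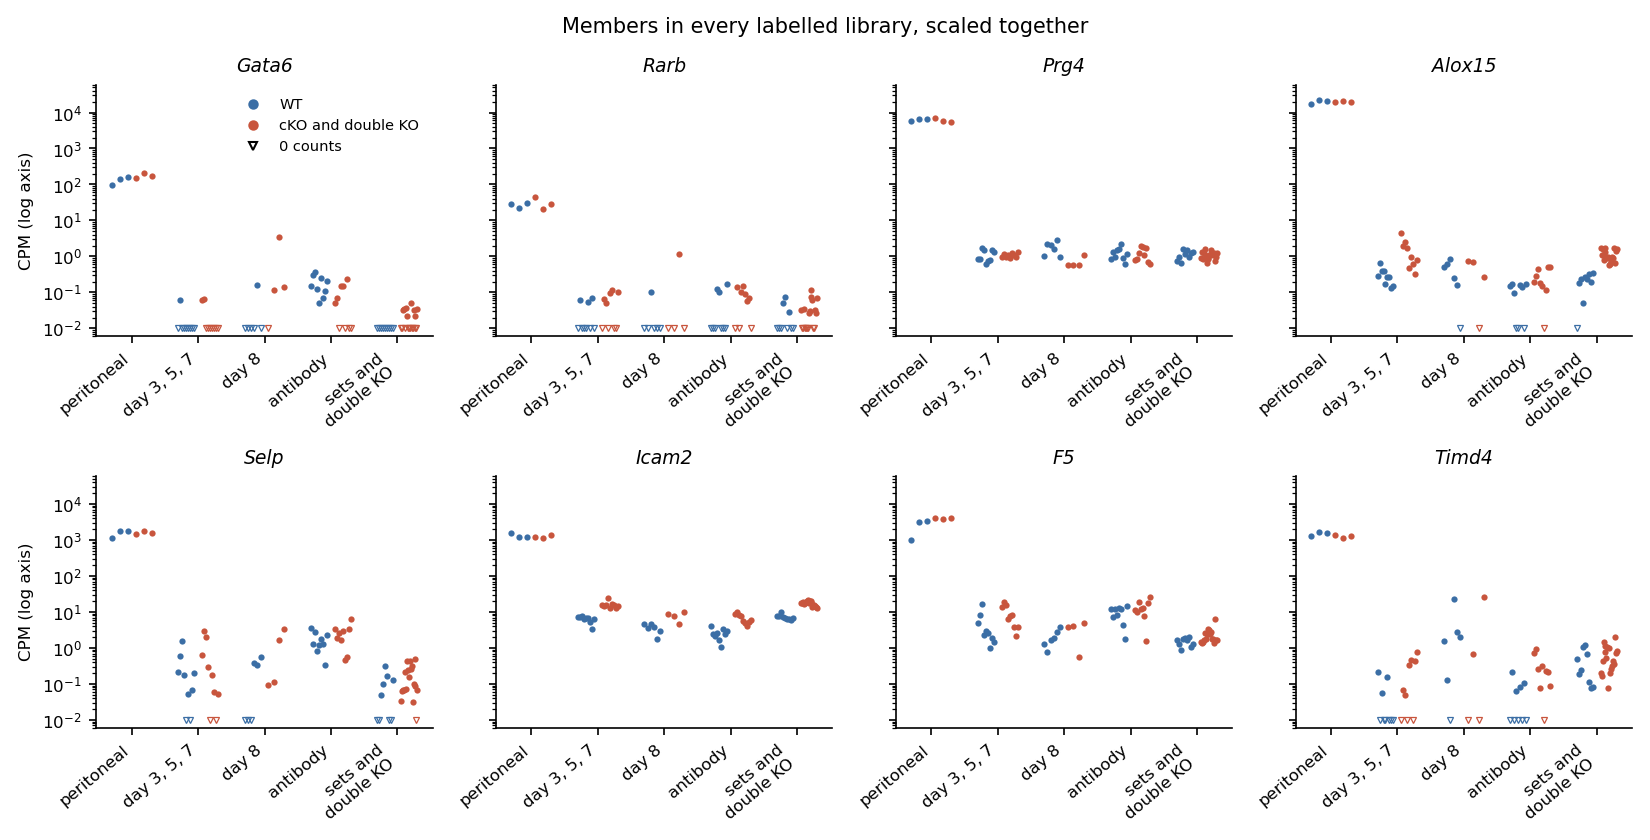
CPM of each member in every labelled library, with all 79 libraries scaled together and a log axis. Each point is 1 library, grouped by experiment, and open triangles mark libraries with 0 counts. The 6 peritoneal libraries lie above all 73 BMDM libraries for every member, and the members were chosen as markers of peritoneal macrophages.

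Whether these genes differed between the genotypes was asked by comparing cKO with WT peritoneal macrophages. H3f3b was not called lower in these cKO libraries, so the comparison does not show what a complete loss of H3.3 would do. None of the 8 members was called: edgeR's quasi-likelihood test called 0 of 8, 0 of 8 had an unadjusted p under 0.05, and DESeq2 called 0. These p-values measure the spread between libraries that the labels call replicates, which are not tied to named mice. Over all 12361 genes tested, 1.06% were called (131 genes, 79 higher and 52 lower). The median log2 fold change of the members was 0.002, beside 0.004 over all genes tested.

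Gata6, the factor on which the identity depends, had 92.0, 128 and 135 CPM in the WT libraries and 123, 174 and 163 CPM in the cKO libraries. The lowest cKO library lay below 2 of the WT libraries, so the groups overlapped. Between libraries of the same replicate number cKO was higher in 3 of 3. The labels do not pair these libraries, and the share of all genes with this order was not computed. The fitted difference on the log2 scale was 0.37 (SE 0.20, adjusted p = 0.665), and 0.22 without WT replicate 1. With the replicate as a block it was 0.38 (adjusted p = 0.423). Rarb had 26.0, 19.3 and 25.0 CPM in WT and 36.7, 18.1 and 27.4 CPM in cKO libraries. Here the cKO libraries included both the highest and the lowest value, with a log2 fold change of 0.23 (SE 0.27, adjusted p = 0.864). Without cKO replicate 1 it was -0.050.

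Alox15 had 16100, 19480 and 17650 CPM in WT and 16720, 18110 and 18480 CPM in cKO libraries. All 3 cKO values lay within the WT range, with a log2 fold change of 0.0020 (SE 0.19, adjusted p = 0.999). Prg4 had 5339, 5959 and 5650 CPM in WT and 5878, 4972 and 5376 CPM in cKO libraries, with a log2 fold change of -0.06 (SE 0.16, adjusted p = 0.946). Its groups overlapped as well.

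The adhesion molecules overlapped between the genotypes. Selp had 1096, 1602 and 1501 CPM in WT and 1267, 1477 and 1464 CPM in cKO libraries, with all cKO values inside the WT range and a log2 fold change of 0.0029 (SE 0.18, adjusted p = 0.999). Icam2 had 1426, 1075 and 996 CPM in WT and 1005, 940 and 1285 CPM in cKO libraries. WT replicate 1 was the highest, the groups overlapped, and the fitted difference was -0.11 (SE 0.20, adjusted p = 0.911). Without WT replicate 1 it was 0.055.

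F5 had 938, 2804 and 2928 CPM in WT and 3344, 3315 and 3852 CPM in cKO libraries. It was the only member whose groups did not overlap, with 3 of 3 cKO libraries above every WT library, while 15% of all genes tested had groups that did not overlap and 8.47% had every cKO library higher. The log2 fold change of 0.66 (SE 0.37) was not called (adjusted p = 0.683), and it was 0.29 without WT replicate 1, the library that stood apart and had the lowest value. With no filter on low counts the same gene was called (log2 fold change 0.65, adjusted p = 0.00306). Timd4 had 1227, 1519 and 1353 CPM in WT and 1168, 960 and 1251 CPM in cKO libraries. The cKO libraries overlapped WT replicate 1, with a log2 fold change of -0.28 (SE 0.17, adjusted p = 0.703). Between libraries of the same replicate number, which the labels do not pair, cKO was lower in 3 of 3.

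**Figure D2:**
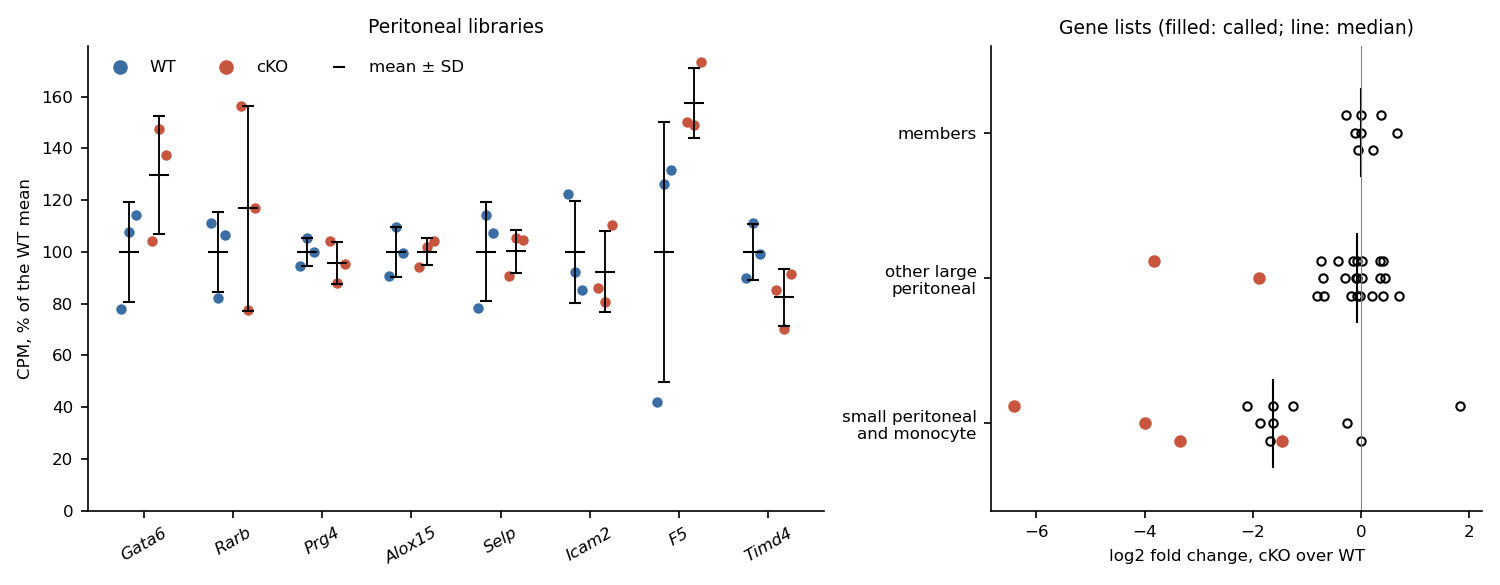
Left, CPM of each member in the 3 WT and 3 cKO peritoneal libraries, as percent of the WT mean, with 1 point per library and bars for the mean ± SD. Right, log2 fold changes (cKO over WT) of the members, of 24 other large peritoneal macrophage genes and of 13 small peritoneal macrophage and monocyte genes, with called genes filled and the median as a line. The medians are 0.002, -0.075 and -1.635.

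Other genes known from the same cells were examined next, in lists that were also chosen with earlier results of these data known. Of 24 further genes known from large peritoneal macrophages, all of which passed the filter, 0 rose and 2 fell, with a median log2 fold change of -0.075. Cxcl13, the chemokine that attracts B cells to the cavity, averaged 964 ± 662 CPM in WT libraries against 68.6 ± 34.8 CPM in cKO libraries (n = 3 each) and fell by 3.82 on the log2 scale (edgeR, adjusted p = 0.0217). Vsig4, a complement receptor of resident macrophages, had 563 ± 70.6 and 152 ± 19.97 CPM (n = 3 each) and fell by 1.89 (edgeR, adjusted p = 0.00294). Over the whole table, 0.639% of genes were called higher and 0.421% lower.

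Of 16 small peritoneal macrophage and monocyte genes, 13 passed the filter, and 4 of these fell and 0 rose, with a median log2 fold change of -1.635. The 4 were Retnla, a secreted product of alternatively activated macrophages (-6.43), Lyve1, a hyaluronan receptor (-3.99), Mrc1, the mannose receptor (-3.35), and Cd209a, a lectin (-1.46). Their adjusted p-values in edgeR lay between 0.00795 and 0.0427. The summed level of this list was 4290, 1640 and 1630 CPM in the WT libraries and 1090, 290 and 434 CPM in the cKO libraries, so that the groups did not overlap. Markers of T cells had 23.9, 5.10 and 8.28 CPM in WT and 49.6, 17.5 and 15.3 CPM in cKO libraries, and 7 of 7 had a positive fold change, of which 0 were called. The part of such cells in the results for the members was not tested.

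The pathways around the members were examined from fixed lists, likewise chosen with earlier results of these data known. Of the retinoic acid genes, which include enzymes, binding proteins and receptors of the ligand and genes that it induces, 11 of 19 passed the filter and 0 were called, with a median log2 fold change of 0.17. Of the lipoxygenase genes, 7 of 11 passed the filter and Alox5, the 5-lipoxygenase that starts leukotriene synthesis, rose by 0.81 on the log2 scale, from 609 ± 43.3 to 1067 ± 28.6 CPM (n = 3 each, edgeR, adjusted p = 0.037). The other 6 were not called, and the median was 0.039. Of the coagulation genes, 9 of 17 passed the filter, and F13a1, the A subunit of the factor that crosslinks fibrin, fell by 4.21 on the log2 scale (edgeR, adjusted p = 0.0142) from 232 ± 134 to 12.2 ± 6.72 CPM (n = 3 each). The other 8 were not called, and the median was 0.053.

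Of the TIM family and the receptors for phosphatidylserine, 5 of 11 passed the filter and 0 were called, with a median of -0.484. In the GATA family, Gata3 alone of 5 other genes passed the filter and was not called, at 0.599 ± 0.276 CPM in WT and 1.13 ± 0.290 CPM in cKO libraries. Gata4 had no count in any of the 6 libraries, where the limit that a count of 0 allows was 0.128 to 0.390 CPM.

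The members were then compared between peritoneal macrophages and untreated day 8 BMDMs of the same genotype in one joint fit. The members were chosen as markers of peritoneal macrophages, and Gata6, Rarb, Selp and Alox15 passed the filter on low counts only through the peritoneal groups, so that the direction was set by the choice and no count or median over the members is read from it. Over all 14100 genes tested, 31.8% were higher in WT peritoneal macrophages and 66.1% were called in either direction, and in cKO cells 28.2% were higher and 59.4% were called. Cell type, isolation and sequencing experiment cannot be told apart here, and the methods name another RNA and library kit for the peritoneal cells than the labels give.

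Day 8 cells held almost no reads of the regulators. Gata6 had 0 counts in the 3 WT BMDM libraries and 114 ± 22.6 CPM in WT peritoneal macrophages, which was at least 1080-fold higher against a floor of 3 counts over the group. In cKO BMDMs it had 1 count, for a ratio of 3200 (574 to 126000, 95% counting interval). Rarb had 1 count in WT BMDMs, a ratio of 640.0 (115 to 25300), and 0 counts in cKO BMDMs, where it was at least 190-fold higher. The intervals cover counting error only, and they are wide where 1 count stood behind the BMDM level.

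For the effector genes the BMDM counts were low but measurable. Alox15 had 17 counts in the 3 WT BMDM libraries, a ratio of 28500 (17800 to 49000), and 14 counts in cKO BMDMs, a ratio of 26500 (15800 to 48400). Prg4 had 45 counts in WT and 11 in cKO BMDMs, with ratios of 3430 (2560 to 4700) and 10200 (5730 to 20500). Timd4, with 13 and 6 counts, had ratios of 2870 (1680 to 5400) and 3910 (1800 to 10700). However, 12 of the 13 and all 6 of these counts came from 1 library each, and leaving out 1 library moved its fitted log2 fold change from 11.41 to between 10.76 and 14.37 in WT and from 11.84 to between 10.78 and 16.62 in cKO cells. The intervals of WT and cKO cells overlapped for Alox15 and Timd4 and not for Prg4, and they include no spread between libraries.

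Selp had 0 counts in WT BMDMs and was at least 12800-fold higher in peritoneal macrophages, and in cKO BMDMs it had 2 counts and a ratio of 14600 (4050 to 121000). F5 had 32 and 76 counts and ratios of 1900 (1350 to 2780) and 961 (768 to 1220). Icam2 had ratios of 300.0 (248 to 367) in WT and 143 (122 to 168) in cKO cells, on 106 and 157 counts.

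Whether the cKO effect differed between peritoneal macrophages and day 8 BMDMs was tested as the difference of the 2 effects. It was called for 0 of 8 members by edgeR and for 0 by DESeq2, while 3 members had an unadjusted p under 0.05 and 0.206% of all genes were called. The 3 were Prg4, with a difference of log2 fold changes of 1.55 (SE 0.52, adjusted p = 0.521), Icam2, with -1.07 (SE 0.36, adjusted p = 0.533), and Selp, with -3.24 (SE 0.89, adjusted p = 0.277). For Selp the BMDM side rested on 0 counts in WT and 2 in cKO cells. It rested on 0 and 1 counts for Gata6, on 1 and 0 for Rarb and on 17 and 14 for Alox15. These members passed the filter only through the peritoneal groups, so 0 calls among 8 do not show that the effects were alike.

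The fixed lists were counted in the same fit, in which the values of genes near 0 in BMDMs depend on the prior count. Of the 24 other large peritoneal macrophage genes, 23 were higher in WT peritoneal macrophages, for which they too were chosen, including Cxcl13 (16.38) and Slpi, a protease inhibitor (14.72), and Cd93, a receptor of endothelial and myeloid cells, was lower (-2.39). Of 16 small peritoneal macrophage and monocyte genes, 12 were higher and 3 were lower, namely Itgax, the integrin CD11c (-7.03), Mrc1 (-4.88) and Folr2, a folate receptor (-2.70). Of 11 retinoic acid genes, 8 were higher, including Cyp26a1, which degrades retinoic acid (9.19), and 1 was lower, Tgm2 (-1.98). Of 7 lipoxygenase genes 6 were higher, including Alox12e, the nearest gene to Alox15 on the chromosome (6.72). Of 7 TIM family and phosphatidylserine receptor genes, 1 was higher and 4 were lower, with Havcr2, which encodes TIM-3, at -8.16, while Timd4 was higher.

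Every member, chosen as a marker of peritoneal macrophages, stayed far below its peritoneal level in all 25 BMDM groups. The share of all genes with such a gap over all libraries was not computed. Against untreated day 8 libraries alone, every peritoneal library was higher for 35.1% of all genes tested in WT and 39.2% in cKO cells. With all labelled libraries on 1 scale, the lowest peritoneal library of Gata6 had 98.3 CPM and the highest of the 73 BMDM libraries 3.41 CPM, a gap of 28.8-fold, and 44 BMDM libraries had no count. That highest library was the small one, cKO day 8 with interferon-γ replicate 1, in which Gata6 had 6 counts. Without it the highest BMDM library had 0.378 CPM, and the gap was 260.0-fold. Rarb had 21.3 CPM in its lowest peritoneal library and 1.14 CPM in its highest BMDM library, the same one, a gap of 18.8-fold, and no count in 41 BMDM libraries. Without that library the gap was 124-fold. These values without 1 library were added after seeing the data.

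The gap was widest for Alox15, with 17190 CPM in its lowest peritoneal library against 4.35 CPM in its highest BMDM library (3950-fold), and for Prg4, with 5579 against 2.94 CPM (1900-fold). It was 185-fold for Selp (1170 against 6.33 CPM), 45.6-fold for Icam2 (1106 against 24.3 CPM), 42.9-fold for Timd4 (1129 against 26.3 CPM) and 38.4-fold for F5 (1001 against 26.1 CPM). When the 27 groups were ordered by their mean, between 20 and 25 of the 26 neighbouring pairs overlapped for each member, and Icam2 had the fewest overlaps with 20. For most neighbours in the order, the levels did not differ beyond the spread between libraries.

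Reads that fall on exons shared by 2 genes were left out of the unstranded counts. In the peritoneal libraries the unstranded count of Prg4, whose exons overlap Tpr, was 95.6% of the sum of its strand columns, while in the BMDM experiments it was 14.9% to 19.4%. For Rarb, whose exons overlap Top2b, it was 37.1% in peritoneal libraries and 4.85% to 9.78% in BMDM libraries. For Selp, whose exons overlap Gm16548 and Gm16587, it was 71.4% in peritoneal libraries and 65.3% to 70.9% in the BMDM experiments. The counts of these members in BMDMs are thus those of exons that no other gene shares. For Alox15, Icam2 and Timd4 nearly all reads were unshared.

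The comparison of cKO with WT cells was repeated in BMDMs. Gata6 and Rarb passed the filter on low counts in none of the BMDM experiments. Prg4, Icam2 and F5 passed it in all 4 experiments, Selp in the time course, the antibody experiment and the sets, Alox15 in the time course and the sets, and Timd4 on day 8 and in the sets. Members that did not pass were not tested.

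Icam2 was the member that differed most regularly. Its cKO libraries lay above every WT library in all 11 comparisons, and it was called higher in 9 of them. Genes with every cKO library above every WT library made up 18.3%, 15.4% and 9.5% of all genes on days 3, 5 and 7, 18% and 15.8% on day 8 without and with interferon-γ, 20.2%, 18.3% and 4.19% without antibody, with the control antibody and with the IFNAR1 antibody, and 21.3%, 20% and 20.8% in sets 1, 2 and 3. On day 3 it had 6.81, 7.03 and 7.57 CPM in WT and 16.1, 15.2 and 16.5 CPM in cKO libraries, a log2 fold change of 1.16 (SE 0.21, edgeR, adjusted p = 0.00233). On day 5 it had 6.74, 6.51 and 6.75 CPM in WT and 24.1, 12.9 and 16.3 CPM in cKO libraries, and on day 7 5.16, 3.49 and 6.35 CPM in WT and 15.7, 13.9 and 14.9 CPM in cKO libraries. The values of day 5 and day 7 gave log2 fold changes of 1.41 (SE 0.21, adjusted p = 0.00249) and 1.55 (SE 0.21, adjusted p = 0.00179). When only the groups compared entered the fit, both missed the threshold (adjusted p = 0.0519 and 0.101). In the same comparisons 2 of 5 tested members were called on day 3, 2 on day 5 and 1 on day 7, where 8.65%, 3.12% and 1.82% of all genes were called.

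In the 3 sets, Icam2 had 7.78 to 10.2 CPM in WT and 17.7 to 18.5 CPM in cKO libraries of set 1, with a log2 fold change of 1.06 (SE 0.10, adjusted p = 2.44e-08). Set 2 had 6.33 to 7.10 CPM in WT and 18.03 to 21.8 CPM in cKO libraries (1.58, SE 0.10, adjusted p = 2.12e-11), and set 3 had 6.12 to 6.95 CPM in WT and 13.9 to 15.7 CPM in cKO libraries (1.18, SE 0.10, adjusted p = 6.05e-09). The spread within groups was small beside the difference in each set. In these comparisons 2, 3 and 2 of 6 tested members were called, and 34.6%, 21.9% and 35.9% of all genes.

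Without antibody on day 6, Icam2 had 4.33, 2.59 and 2.23 CPM in WT and 9.59, 10.96 and 8.89 CPM in cKO libraries, a log2 fold change of 1.69 (SE 0.27, adjusted p = 0.00175). With the control antibody it had 2.80, 1.87 and 1.19 CPM in WT and 8.15, 6.68 and 5.39 CPM in cKO libraries (1.80, SE 0.31, adjusted p = 0.00242). With the IFNAR1 antibody it had 3.61, 2.76 and 3.24 CPM in WT and 4.56, 5.89 and 6.47 CPM in cKO libraries, and the log2 fold change of 0.79 (SE 0.28) was not called (adjusted p = 0.273). Icam2 was the 1 member called of 4 tested without antibody and with the control antibody, where 8.16% and 5.11% of genes were called, and with the IFNAR1 antibody 0 of 4 members and 0.698% of genes were called, with 1 member, Icam2, at an unadjusted p under 0.05 and 0 by DESeq2. The cKO effect with the IFNAR1 antibody minus that with the control antibody was -1.002 on the log2 scale (SE 0.42), with an adjusted p = 0.80 in edgeR's fit, and was not called. No gene was called for this difference by edgeR, which gave 990 genes an unadjusted p under 0.05, and DESeq2 called 49. Between the antibodies, 0 of 4 members were called in cKO cells (4.68% of genes, 0 members at an unadjusted p under 0.05) and 0 of 4 in WT cells (11.2% of genes), where Prg4 (-0.95, adjusted p = 0.0895) and Icam2 (0.70, adjusted p = 0.131) had an unadjusted p under 0.05, and DESeq2 called 0 in either genotype.

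On day 8 without interferon-γ, Icam2 had 3.83, 2.97 and 3.76 CPM in WT and 7.29 and 6.54 CPM in cKO libraries, a log2 fold change of 0.97 (SE 0.31, adjusted p = 0.411) that was not called. No member was called in this comparison by edgeR or DESeq2, 3 of 4 had an unadjusted p under 0.05, and 0.658% of genes were called. With interferon-γ it had 3.21, 1.63 and 2.64 CPM in WT and 4.82 and 8.58 CPM in cKO libraries, and the log2 fold change of 1.48 (SE 0.33) was called (adjusted p = 0.0354), the only call among 4 members beside 5.48% of genes. This call was lost without cKO replicate 2 (0.88, adjusted p = 0.281) and without any 1 of the 3 WT libraries (adjusted p from 0.0563 to 0.120).

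Icam2 is also made by endothelial cells, and the summed level of 7 endothelial markers was therefore set beside it. In the time course this sum overlapped between WT and cKO cells on every day (64.8 to 140 CPM in WT and 125 to 187 CPM in cKO libraries on day 3). In sets 1, 2 and 3 it was 109 to 121, 74.0 to 82.2 and 100 to 130 CPM in WT and 87.1 to 115, 68.2 to 86.0 and 82.3 to 104 CPM in cKO libraries, with overlap in each set, while Icam2 was higher in every cKO library. Without antibody and with the control antibody it was higher in every cKO library (152 to 182 against 94.8 to 113 CPM, and 146 to 187 against 103 to 109 CPM). The same held on day 8 without interferon-γ (136 to 152 against 116 to 125 CPM) and with it (510 to 704 against 204 to 329 CPM), the condition in which Icam2 was called. The part of such cells was not tested.

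**Figure D3:**
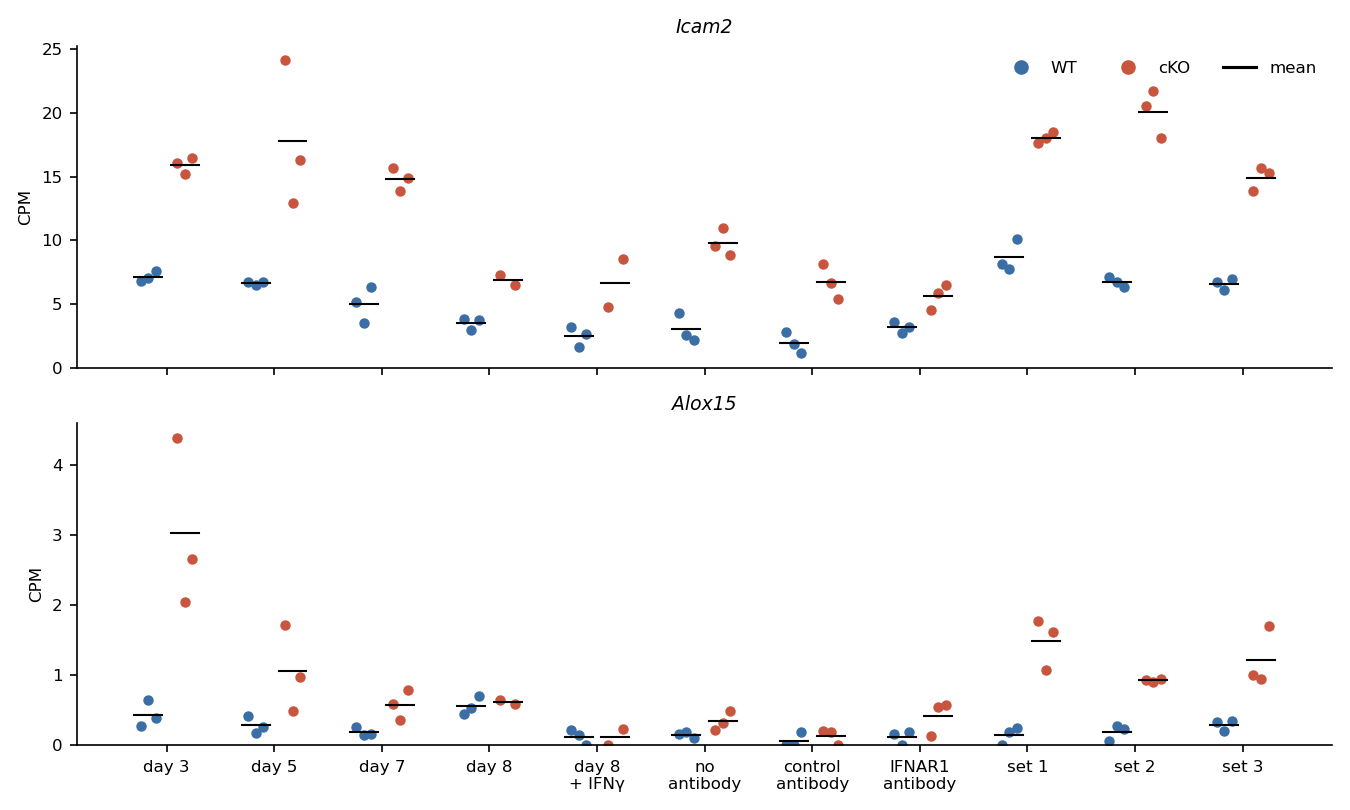
CPM of Icam2 and Alox15 in the WT and cKO BMDM libraries of each comparison, with 1 point per library, a line at each mean and a linear axis that starts at 0. For Icam2 every cKO library lies above every WT library of its comparison, and for Alox15 this holds in the time course and the 3 sets.

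Alox15, though far below its peritoneal level, was called higher in cKO BMDMs in 4 comparisons. WT libraries of the time course and the sets had at most 11 counts. Without cKO or double KO libraries Alox15 would not have passed the filter on low counts. The filter thus favoured this direction, and the calls are not read as support for a rise. On day 3 it had 4, 11 and 7 counts in the WT libraries (0.272, 0.645 and 0.393 CPM) and 70, 30 and 51 counts in the cKO libraries (4.40, 2.05 and 2.66 CPM). The groups did not overlap, and the fitted log2 fold change was 2.76 (SE 0.44, adjusted p = 9.89e-04). On days 5 and 7 the cKO libraries were again above every WT library, with 10 to 29 against 3 to 7 counts and 6 to 15 against 2 to 5 counts, but the log2 fold changes of 1.88 (SE 0.55, adjusted p = 0.0869) and 1.59 (SE 0.67, adjusted p = 0.245) were not called. That of day 5 was called without cKO replicate 2 (2.25, adjusted p = 0.0234) and by DESeq2 (adjusted p = 0.0426).

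In the sets Alox15 had 0 to 6 counts in WT and 33 to 54 counts in cKO libraries of set 1 (3.32, SE 0.53, adjusted p = 2.85e-05), 2 to 11 and 36 to 42 counts in set 2 (2.33, SE 0.47, adjusted p = 7e-04), and 5 to 11 and 28 to 78 counts in set 3 (2.10, SE 0.45, adjusted p = 0.00066). No library of one genotype reached the other in any set. On day 8 and in the antibody experiment it had at most 8 counts in a library and was not tested. Eosinophils also express Alox15, and 5 eosinophil markers summed to 11 to 19.6 CPM in WT and 32.7 to 39.9 CPM in cKO libraries of day 3, without overlap. On day 5 they summed to 3.20 to 4.33 CPM in WT and 4.90 to 18.6 CPM in cKO libraries, again higher in every cKO library, and on day 7 to 2.10 to 17.6 and 1.64 to 6.87 CPM. In set 1 they summed to 4.09 to 8.22 and 5.49 to 7.67 CPM, in set 2 to 60.8 to 81.4 and 9.88 to 13.6 CPM, and in set 3 to 5.10 to 8.20 and 5.81 to 9.11 CPM, with overlap in sets 1 and 3 and lower sums in cKO libraries of set 2. The part of these cells in the level of Alox15 was not tested.

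F5 was called in 1 BMDM comparison. On day 5 it had 2.33, 2.81 and 2.53 CPM in WT and 6.15, 7.99 and 8.26 CPM in cKO libraries, with no overlap and a log2 fold change of 1.55 (SE 0.36, adjusted p = 0.0296). Leaving out any 1 of the 6 libraries raised its adjusted p to between 0.0628 and 0.127. On days 3 and 7 its log2 fold changes were 0.80 (adjusted p = 0.145) and 1.24 (adjusted p = 0.147), and on day 8 without interferon-γ 1.67 (adjusted p = 0.382), none of them called. Prg4 was called lower in set 2 only, where it had 1.62, 1.17 and 1.52 CPM in WT and 0.644, 0.846 and 0.894 CPM in cKO libraries (-0.85, SE 0.23, adjusted p = 0.0084). Its values in sets 1 and 3 were 0.32 (adjusted p = 0.403) and -0.04 (adjusted p = 0.925), and the call in set 2 was lost without WT replicate 1 (adjusted p = 0.0539) or cKO replicate 1 (adjusted p = 0.0575). With counts of 1 strand it was -0.29 (adjusted p = 0.142). In the sets the unstranded count of Prg4 was 16.3% of the sum of its strand columns. The value from 1 strand thus also holds reads on exons shared with Tpr.

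During culture, members fell from day 3 to day 7. F5 had 4.63, 7.68 and 15.9 CPM on day 3 and 0.938, 1.89 and 1.45 CPM on day 7 in WT libraries, without overlap, and fell by 2.76 on the log2 scale (SE 0.40, adjusted p = 2.93e-04). In cKO libraries it had 13.6, 19.8 and 16.2 CPM on day 3 and 3.64, 2.34 and 3.93 CPM on day 7 and fell by 2.32 (SE 0.35, adjusted p = 3.45e-04). In both genotypes every day 7 library lay below every day 3 library, as for 16.9% of all genes in WT and 18.5% in cKO cells.

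Selp had 3, 10 and 27 counts on day 3 and 0, 1 and 4 counts on day 7 in WT libraries, and the groups overlapped. It fell by 2.99 on the log2 scale (SE 0.93, adjusted p = 0.0232), a call that was lost without WT day 3 replicate 3 (-2.04, adjusted p = 0.186) and without WT day 7 replicate 1 or 2 (adjusted p = 0.0637 and 0.0724). In cKO libraries it had 10, 45 and 40 counts on day 3 and 1, 0 and 1 on day 7 and fell by 5.43 (SE 0.93, adjusted p = 2.85e-04). Alox15 fell in cKO cells, from 70, 30 and 51 counts to 10, 6 and 15 (-2.37, SE 0.41, adjusted p = 0.00107), and was not called in WT cells (-1.20, adjusted p = 0.228). Thus 2 of 5 tested members were lower in WT cells, where 11.9% of all genes were lower and 24.5% called. In cKO cells 3 of 5 were lower, where 8.25% of all genes were lower and 14.7% called. Selp had at most 5 counts in any library of day 5 or 7 and passed the filter on low counts only through day 3. The filter thus set its direction, and the counts of members are not read as a result. With a filter at a mean of 1 CPM, 1 member was called in each genotype. Whether the fall differed between the genotypes was not tested.

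Selp and F5 are also known from platelets and megakaryocytes, which form from bone marrow as well. The 7 platelet and megakaryocyte markers summed to 16.6, 39.9 and 136 CPM in the WT libraries of day 3, and the library with the highest sum also had the most Selp (1.52 CPM, against 0.204 and 0.586 CPM) and F5. In the cKO libraries of day 3 they summed to 47.7, 176 and 102 CPM, where Selp had 0.628, 3.08 and 2.09 CPM. By day 7 the sums were 1.77 to 3.77 CPM in WT and 1.52 to 2 CPM in cKO libraries. Neutrophil markers summed to 1270 to 2280 CPM on day 3 and 85.1 to 145 CPM on day 7 in WT libraries. The sum of the eosinophil markers was also lower on day 7 in cKO libraries (1.64 to 6.87 CPM) than on day 3 (32.7 to 39.9 CPM). The part of these cells in the fall of Selp, F5 and Alox15 was not tested.

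**Figure D4:**
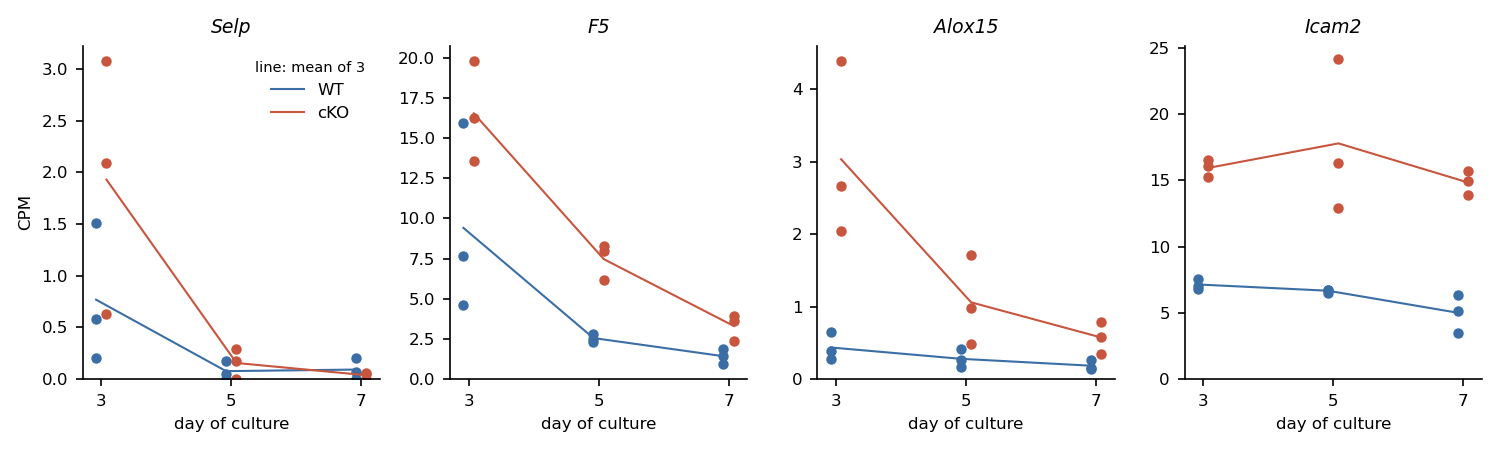
CPM of Selp, F5, Alox15 and Icam2 in WT and cKO libraries on days 3, 5 and 7 of culture, with 1 point per library and a line through the means of 3. F5, Selp and, in cKO cells, Alox15 are highest on day 3, while Icam2 stays higher in cKO than in WT libraries on each day.

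Timd4 was the member with the widest spread after interferon-γ. In WT cells of day 8 it had 12, 1 and 0 counts without and 181, 17 and 15 counts with interferon-γ (1.31, 0.106 and 0 against 19.4, 2.52 and 1.80 CPM). Every treated library was above every untreated one, as for 31.5% of all genes, but 1 library held most of the reads, and the log2 fold change of 4.11 (SE 1.49) was not called (adjusted p = 0.0515). In cKO cells it had 0 and 6 counts without and 0 and 192 counts with interferon-γ, a log2 fold change of 5.44 (SE 1.93, adjusted p = 0.0529) that was -4.30 without the treated replicate 2. The treated library at 0 was the smallest one, in which a count of 0 allows up to 1.81 CPM. Without WT untreated replicate 1 the change in WT cells was called (6.97, adjusted p = 0.0289). In cKO cells it was 6.36 without treated replicate 1, a fit with 1 treated library. With edgeR's older estimate of the spread, the changes in WT and cKO cells were called (adjusted p = 0.0377 and 0.0355). Timd4 would not have passed the filter on low counts without treated libraries. The filter thus favoured this direction, and these calls are not read as support for a rise. F5, the next member, had a log2 fold change of 1.23 in WT cells (adjusted p = 0.0712) and -0.21 in cKO cells (adjusted p = 0.802). With interferon-γ, edgeR called 0 of 4 members in WT cells, where 38.9% of genes were called and 2 members had an unadjusted p under 0.05, and 0 of 4 in cKO cells, where 33.9% were called and 1 member had one. DESeq2 called 0 in both. Dendritic cell markers summed to 1.06 to 1.75 CPM without and 50.4 to 74.7 CPM with interferon-γ in WT cells, and their part was not tested.

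The double KOs were compared with the mean of the 3 cKO sets. Timd4 had 42, 22 and 32 counts in Sting double KO libraries and 3 to 43 counts in the 9 cKO libraries of the sets, and was called higher (1.60, SE 0.45, adjusted p = 0.00717). In Irf7 double KO libraries it had 59, 27 and 24 counts (1.61, SE 0.43, adjusted p = 0.0177). The cKO sets reached 1.07 CPM, and Sting double KO replicates 1 and 3 (1.49 and 1.18 CPM) and Irf7 double KO replicate 1 (1.99 CPM) lay above that level, while the other 3 libraries lay below it. The Sting call was lost without Sting double KO replicate 1 (1.37, adjusted p = 0.0752) and the Irf7 call without Irf7 double KO replicate 1 (1.03, adjusted p = 0.281).

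Icam2 had 15.2, 14.04 and 13.3 CPM in Irf7 double KO libraries and 13.9 to 21.8 CPM in the cKO sets, whose means were 18.1, 20.1 and 14.9 CPM. It was called lower by 0.31 on the log2 scale (SE 0.08, adjusted p = 0.0116), while 2 of its libraries lay within the range of set 3 and 1 below it, and the call was lost without replicate 2 (adjusted p = 0.0664) or replicate 3 (adjusted p = 0.0778) of the double KO. In Mavs double KO cells edgeR called 0 of 6 members and DESeq2 1, and 2 had an unadjusted p under 0.05, Alox15 (-0.91, adjusted p = 0.0570) and Selp (1.60, adjusted p = 0.0685). The shares of all genes called were 36.4% for Sting, 9.32% for Mavs and 10.6% for Irf7 double KO cells, against 1, 0 and 2 of 6 members. A double KO could not be compared within its own set, and set and double KO cannot be told apart.

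Genes with the most similar pattern were found as the highest Pearson correlation of mean log2 CPM with each member over the 27 groups, among 16779 genes. These values are descriptions, since 2 peritoneal groups stand far from 25 BMDM groups that share libraries and experiments. Gata6 was most like Ptgis (r = 0.991), a prostacyclin synthase, Rarb like 4933417E11Rik (r = 0.985), Prg4 like Wnt2 (r = 0.995) and Alox15 like Krt8 (r = 0.975). Selp was most like Gda (r = 0.956), with F5 among its 3 closest genes (r = 0.954), Icam2 like Lonp2 (r = 0.961), with Alox15 next (r = 0.960), F5 like Gfpt2 (r = 0.974) and Timd4 like Gm31938 (r = 0.951). Among the members the correlations ran from 0.728 between Selp and Icam2 to 0.979 between Rarb and Prg4.

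Within the 25 BMDM groups alone the closest genes were others. Icam2 was most like Prr5 (r = 0.900), F5 like Slc7a11 (r = 0.903), Selp like Aars (r = 0.898), Alox15 like Dleu7 (r = 0.871), Timd4 like Pcsk1 (r = 0.827) and Prg4 like Npy (r = 0.648). Gata6, most like Trmt61b (r = 0.927), had no count in 44 of the 73 libraries, so its pattern there rested on a few reads, and Rarb stayed below 1 CPM in every BMDM group and was not matched.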

How the data were processed

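RNA-seq was measured in peritoneal macrophages and BMDMs by paired-end sequencing. Per the labels and the methods, the authors trimmed reads with Cutadapt and aligned them with STAR to mm10, in versions not given in the sources used here, and deposited STAR's raw counts per gene, of which the unstranded column was used. The labels name a Zymo extraction with rRNA depletion for all libraries, whereas the methods name Trizol and an amplifying kit for the peritoneal cells. Median shares of reads outside genes in the 5 experiments were 1.76% to 15.98% unmapped, 6.37% to 12.2% multimapping, 4.78% to 25.04% without a feature and 4.26% to 6.02% ambiguous, and these stayed out of library sizes.

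Each experiment was fitted with edgeR 4.0.16 in R 4.3.3 (quasi-likelihood test, TMM scaling, filterByExpr with a minimum count of 10 and total of 15). All p-values are two-sided, adjusted over all genes tested by Benjamini-Hochberg, and called under 0.05. CPM are counts per 1000000 TMM-scaled reads within an experiment. DESeq2 1.42.0 and the other settings were alternatives, while the methods name SARTools for differential expression. edgeR's bias-corrected estimate of the spread replaced its older default after results for the members had been seen under the latter, which is given as an alternative added after seeing the data. Peritoneal counts were also simulated with the same spread for every gene (dispersion 0.04). Of 99 genes changed by 1 on the log2 scale 64.6% were recovered, and of 95 changed by 2 98.9%, with 13 false calls, among 12196 genes. The differing spread of the real genes was not simulated, so these rates do not give the power of the test for the members.

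No pair of replicates matched within sampling noise (lowest chi-square per degree of freedom 3.69). Deviations from group means correlated positively within every replicate number for the peritoneal comparison (r = 0.144, 0.184 and 0.194). The same held for day 3 (0.419, 0.126 and 0.252) and day 7 (0.467, 0.153 and 0.201). It also held for set 3 (0.269, 0.237 and 0.037), set 1 (0.042, 0.093 and 0.059) and day 8 without interferon-γ (0.033 and 0.085). The labels state no pairing, and libraries of different numbers were not correlated, so pairing was not established. The main fits therefore carry no replicate block. The replicate block is described with the alternatives. A pair of cKO libraries of day 8, whose title and library name disagree on interferon-γ, entered no comparison. The members and gene lists were chosen with earlier results of these data known. All members were named in every comparison. Of each list, the 2 called genes with the largest change in cKO peritoneal macrophages and in WT peritoneal against day 8 cells were named. Gata3, Gata4, Mrc1, Cd209a, Cd93, Itgax, Folr2, Tgm2 and Alox12e were also named, after their values were seen. The result for the list of adhesion genes is not reported here. The 3 most similar genes were sought over groups, and the first is given.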

Additional observations from a re-analysis of the deposited data

Results flagged for a closer look

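The 2 cKO libraries of day 8 whose labels disagree on interferon-γ were part of no comparison, and they are singled out because some members lay above every untreated WT library of day 8. Icam2 had 9.41 CPM in the first and 11.5 CPM in the second, against at most 3.94 CPM in untreated WT libraries, and F5 had 3.39 and 4.15 CPM against at most 1.43 CPM. Timd4 had 0.578 CPM in the first and 19.5 CPM in the second (7 and 183 counts), against at most 1.35 CPM. Selp had 1.06 CPM in the second, on 10 counts, and Gata6 had 0.0826 CPM in the first, on 1 count, where untreated WT libraries had no count of either. Rarb, Prg4 and Alox15 did not exceed the untreated WT libraries. No condition was inferred from these values.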

How the results depend on the processing

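Of 402 recomputed counts of called genes, 329 stayed within 1.5 times the count reported and 73 did not, and of 772 recomputed fold changes of single members, 711 kept direction and side of the threshold, 29 lost a call, 16 gained one and 16 changed sign. The causes were not tested. The number of members called in cKO against WT cells moved on day 3 from 2 to 1 (filter at 1 CPM), on day 5 from 2 to 1 (1 strand, or only the groups compared), and on day 7 from 1 to 2 (DESeq2) or 0 (only the groups compared). Without interferon-γ on day 8 it moved from 0 to 1 (no filter) or 2 (only the groups compared), with interferon-γ from 1 to 2 (no filter) or 0 (replicate block, libraries of disagreeing labels placed by title, or only the groups compared), without antibody from 1 to 2 (no filter), in sets 1 and 3 from 2 to 1 (filter at 1 CPM), and in peritoneal macrophages from 0 to 1 (no filter, F5). Over all genes, the 131 calls in peritoneal macrophages became 336 (DESeq2), 673 (no filter) and 251 (fitted with day 8). Between days 7 and 3, 2 members in WT cells became 1 (filter at 1 CPM, 1 strand, or only the groups compared) and 3 in cKO cells became 1 (filter at 1 CPM). For interferon-γ, 0 became 3 (no filter), 1 (1 strand, or edgeR's older estimate) or 2 (placed by library name, or only the groups compared) in WT cells and 2 (no filter) or 1 (1 strand, older estimate, or placed by library name) in cKO cells. For Mavs double KO cells 0 became 1 (DESeq2, no filter, or replicate block) or 3 (only the groups compared), for Irf7 2 became 1 (no filter, filter at 1 CPM, or 1 strand), and for Sting 1 became 0 (filter at 1 CPM).

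Leaving out 1 library moved the members called to 2 to 4 on day 3, 1 to 2 on day 5, 0 to 2 with interferon-γ in cKO against WT cells, 1 to 2 without antibody, 1 to 3 between days 7 and 3 in WT cells, 0 to 1 and 0 to 2 for interferon-γ in WT and cKO cells, 0 to 1 for the IFNAR1 antibody in WT cells, and 0 to 2, 0 to 1 and 1 to 2 for Sting, Mavs and Irf7 double KO cells, and all calls in peritoneal macrophages to 37 to 152. Fold changes near 0 changed sign in peritoneal macrophages: Alox15 with DESeq2 or its size factors (-0.0071) and 1 strand (-0.12), and Selp with DESeq2 (-0.0056), its size factors (-0.0055) and 1 strand (-0.054). Without 1 library the log2 fold changes ranged from -0.064 to 0.068 for Alox15, -0.15 to 0.11 for Selp, -0.26 to 0.055 for Icam2 and -0.050 to 0.46 for Rarb, and that of Timd4 with interferon-γ in cKO cells from -4.30 to 9.71. For Timd4 in cKO cells, fitting only the groups compared gave no test. With the replicate block, the members called stayed 0 in peritoneal macrophages, 2 on day 3 and 1 on day 7. All calls in peritoneal macrophages were then 100. On day 5, where the correlation of deviations was -0.023 for replicate 2, 3 members were called with the block. Depth limits Gata6 and Rarb in BMDMs, whose counts were too low for a test.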
